A study of Mus musculus with 10 samples.

Results

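The 10 genes described here are glutathione transferases, taken by symbol from the 54838 genes listed in the count tables of crypts from the mouse jejunum. They are Gsta1 and Gsta4 of the alpha class, Gstm1, Gstm2 and Gstm3 of the mu class, Gstk1 of the kappa class, Gsto1 of the omega class, and the membrane-bound Mgst1, Mgst2 and Mgst3. All 10 were found and all 10 passed the filter on low counts. RNA was compared between 5 WT mice and 5 Arid3a cKO mice (VillinCre-ERT2+/−; Arid3a fl/fl), 1 library per animal, 1 month after the first of 3 daily tamoxifen injections that both genotypes received. In the cKO animals the Villin promoter limits the tamoxifen-activated Cre to the intestinal epithelium, so non-epithelial cells keep Arid3a. Whether the WT animals carry Cre or floxed alleles, and the age of the mice, are not given in the labels. The animal numbers in the labels have a different stem in each genotype. What the stem stands for is not given, and anything that goes with it cannot be told apart from genotype.

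Glutathione transferases join the tripeptide glutathione to electrophilic compounds, which makes them more water-soluble and marks them for export and breakdown to mercapturates. The alpha, mu, pi and theta classes are soluble cytosolic enzymes, Gstk1 lies in mitochondria and peroxisomes, and the Mgst proteins are small membrane proteins, some of which also handle lipid hydroperoxides and leukotrienes. The intestinal epithelium is a major site of this chemistry outside the liver, and differentiated enterocytes are known for high levels of the alpha-class enzymes. The stress-responsive factor NRF2, encoded by Nfe2l2, and nuclear receptors for foreign compounds are known to activate many of these genes.

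Several of these genes are recent copies of each other, and a read that matches more than 1 of them is divided among them by RSEM, the program that made the counts. The closest pair was Gsta1 and Gm3776, another alpha-class gene of the same cluster, whose coding sequences were identical at 667 of 669 bases (99.7%). Counted from the A of the start codon, the 2 differences were T25C and C591T, with the base of Gsta1 named before the position and that of Gm3776 after it. The opening 60 coding bases are shown for Gsta1 (chr9:78232240-78232299, plus strand), Gm3776 (chr9:78258712-78258771, plus strand), Gsta2 (chr9:78341857-78341916, minus strand) and Gsta4 (chr9:78198290-78198349, plus strand), all in exon 2 of 7 on GRCm38, because they show which genes a short read can tell apart. Capitals mark bases that differ from Gsta1, of which Gm3776 has 1, Gsta2 none and Gsta4 19 in this stretch.
Gsta1: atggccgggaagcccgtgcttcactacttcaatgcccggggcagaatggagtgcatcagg
Gm3776: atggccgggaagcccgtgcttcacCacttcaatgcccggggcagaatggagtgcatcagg
Gsta2: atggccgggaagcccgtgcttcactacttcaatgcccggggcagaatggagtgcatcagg
Gsta4: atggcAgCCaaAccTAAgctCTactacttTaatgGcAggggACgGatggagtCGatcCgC

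Of the 880 distinct 75-base stretches in the listed transcripts of Gsta1, 84.7% also occur in another gene, 69.3% in Gm3776, 33.8% in Gsta2 and 18.8% in Gm10639. The read length is not given in the sources used here, and 75 bases was chosen as a typical length. No 75-base stretch of Gsta4, Gstk1, Gsto1, Mgst1, Mgst2 or Mgst3 occurs in another gene. The mu-class members lie between these extremes, with 11.7% of the stretches of Gstm1, 1.85% of Gstm2 and 21.6% of Gstm3 shared, partly with the pseudogenes Gstm2-ps1 and Gm8834. Those 2 pseudogenes held at most 18 expected counts in any library. The 60 coding bases below were chosen as the stretch where Gstm1 differs most from Gstm2. They are shown for Gstm1 (chr3:108012695-108012754), Gstm2 (chr3:107982055-107982114) and Gstm3 (chr3:107964213-107964272), all in exon 8 of 8 on the minus strand of GRCm38. Capitals mark the 18 bases of Gstm2 and the 14 bases of Gstm3 that differ from Gstm1, and over the whole coding sequence Gstm1 was 85.9% identical to Gstm2 and 89.4% identical to Gstm3.
Gstm1: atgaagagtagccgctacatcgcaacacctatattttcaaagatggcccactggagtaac
Gstm2: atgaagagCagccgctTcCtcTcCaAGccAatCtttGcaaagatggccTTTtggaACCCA
Gstm3: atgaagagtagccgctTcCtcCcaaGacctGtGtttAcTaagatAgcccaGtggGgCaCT

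Total expected counts per library lay between 27050455 and 31053622. Arid3a, the deleted gene, had a level in CPM (counts scaled to normalized library sizes) of 2.42 ± 0.397 in the WT and of 0.673 ± 0.350 in the cKO group (mean ± SD, n = 5 libraries each), a log2 fold change of −1.84 (SE 0.316, edgeR adjusted p = 0.00204), and the genotypes did not overlap. Of 6 epithelial markers 2 were called higher, Vil1 (log2 fold change 0.80) and Krt20 (1.47), and 4 were not called, Epcam (0.18), Cdh1 (0.01), Krt8 (0.06) and Cldn7 (0.00). All 12 enterocyte markers were called higher in cKO. Their median on the log2 scale was 1.82, and their summed TPM (a share of all transcripts that adjusts for transcript length) was 1891 to 9809 in WT and 9780 to 18900 in cKO libraries. Of 9 stem and transit-amplifying markers 6 were called lower, as were 4 of 6 Paneth markers, while 3 of 6 enteroendocrine and 3 of 5 tuft markers were called higher and none of 7 goblet markers was called in edgeR (3 had an unadjusted p under 0.05, and DESeq2 called 1). Immune markers had 2 of 10 called lower, with a summed TPM of 79.8 to 162 in WT and 33.0 to 138 in cKO libraries, and 2 of 9 stromal and endothelial markers were called lower. Over all genes tested 15.6% were called higher and 12.7% lower. The enterocyte markers were higher in cKO, as most of the transferases were. The stem and transit-amplifying markers (median log2 fold change −0.38) and the Paneth markers (−0.64) mostly moved the opposite way. Most epithelial, immune and stromal markers and all goblet markers were not called in edgeR, which does not show that they were unchanged. Their median log2 fold changes were 0.12 (epithelial), −0.72 (immune), −0.26 (stromal and endothelial) and 0.10 (goblet). Of the immune markers 2 of 10 had a positive value, and of the stromal and endothelial markers 1 of 9. In whole crypts a different number of cells of a type and a different amount of RNA per cell cannot be told apart, and the part of cell composition in the values below was not tested.

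Of the 10 transferases 9 were called higher in cKO crypts and none lower, at a Benjamini-Hochberg adjusted p under 0.05 over the 14719 genes tested with edgeR. Across all genes tested, 28.3% were called, 15.6% higher and 12.7% lower. No member was lower at an unadjusted p under 0.05 in edgeR, nor called lower by DESeq2 or limma-voom, which also called 9 higher. The members' log2 fold changes (cKO minus WT) had a median of 0.86 and ranged from 0.08 for Gstm2 to 1.55 for Gsta1, against a median of −0.03 over all genes tested. In 7 of the 10 every cKO library was above every WT library in CPM, and 12.0% of all genes tested had the same separation, while 7.63% were separated the other way. The summed level of the 10 genes was 1948 ± 410 TPM in WT and 3336 ± 286 TPM in cKO crypts (mean ± SD, n = 5 each), with 1553 to 2619 in WT and 2896 to 3676 in cKO libraries. The 10 members carried 62.5 ± 0.773% of the TPM of all 32 family genes found in WT and 67.9 ± 0.649% in cKO libraries, without overlap.

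**Figure D1:**
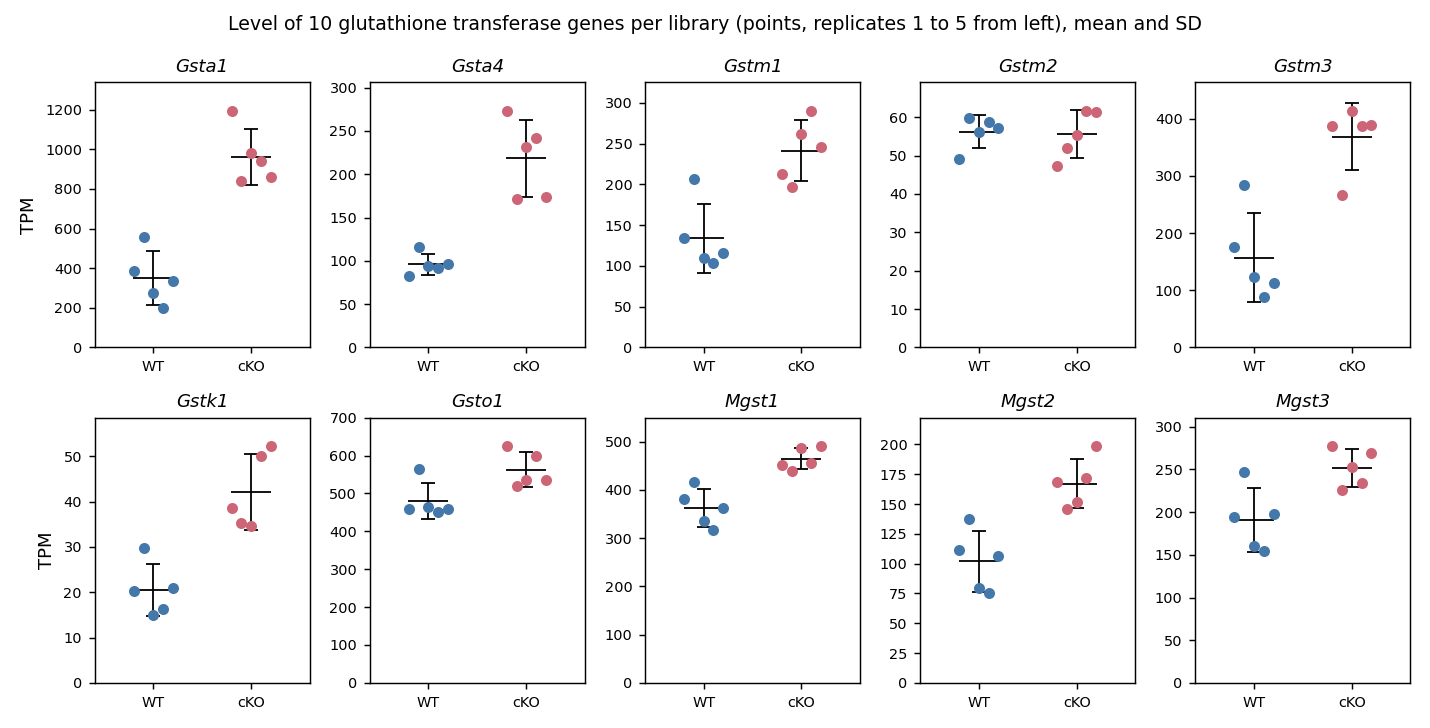
Level of each member in TPM (y axis, from 0) in WT (blue) and cKO (red) libraries, with each point 1 library, replicates 1 to 5 from left to right, and the black bars the mean and SD of 5 libraries. Gsta1 shows the widest gap, from at most 558 TPM in WT to at least 842 TPM in cKO libraries, while the Gstm2 points of both genotypes lie between 47.2 and 61.7 TPM.

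Gsta1 (ENSMUSG00000074183, chr9:78230656-78242684 on GRCm38) encodes an alpha-class enzyme with broad activity on electrophiles and lipid hydroperoxides. Its level was 386, 558, 274, 197 and 334 TPM in WT replicates 1 to 5 and 1195, 842, 980.4, 939.7 and 859 TPM in cKO replicates 1 to 5. Every cKO library was above every WT library, with WT replicate 2 the highest and WT replicate 4 the lowest of the WT libraries. The log2 fold change was 1.55 (SE 0.261, 95% interval 0.97 to 2.13, edgeR adjusted p = 0.00306), or 2.92-fold. Gm3776, its nearest copy, stood at 166.5, 227, 99.9, 84.6 and 125 TPM in WT and at 480.4, 344, 442, 389 and 361 TPM in cKO libraries, a log2 fold change of 1.604 (SE 0.269, adjusted p = 0.00316). With the expected counts of Gsta1 and Gm3776 added together, which takes the division of reads between them out of the value, the log2 fold change was 1.56 (SE 0.261, adjusted p = 0.00287). Adding Gsta1 to Gsta2 gave 1.55, and the sum of Gsta1, Gm3776, Gm10639 and Gsta2 gave 1.56.

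Gsta4 (ENSMUSG00000032348, chr9:78182774-78209349) encodes the alpha-class enzyme known for conjugating 4-hydroxynonenal, a product of lipid peroxidation. It was at 82.0, 116, 93.7, 91.4 and 96.2 TPM in the WT libraries and at 273, 171, 232, 242 and 174 TPM in the cKO libraries. The genotypes did not overlap, and within cKO replicates 2 and 5 were the lowest. The log2 fold change was 1.27 (SE 0.142, 95% interval 0.96 to 1.58, edgeR adjusted p = 0.000456). Its coding sequence was 65.8% identical to that of Gsta1 and none of its 75-base stretches was shared, so at this length the values of Gsta4 do not depend on the division of reads with the Gsta1 copies.

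Of the 3 mu-class members, which share 1 cluster on chromosome 3, 2 were called higher and 1 was not called. These enzymes conjugate aromatic and epoxide compounds. Gstm1 (ENSMUSG00000058135, chr3:108012255-108017973) was at 134, 206, 109, 104 and 116 TPM in WT and at 213, 196, 262, 290.4 and 246 TPM in cKO libraries. By TPM WT replicate 2 lay above cKO replicate 2, whereas in CPM they were at 185.1 and 185.8 and the genotypes did not overlap. Its log2 fold change was 0.94 (SE 0.201, edgeR adjusted p = 0.00770). Gstm3 (ENSMUSG00000004038, chr3:107963696-107969283) was at 176, 285, 123, 88.0 and 113 TPM in WT and at 387, 267, 414, 388 and 389 TPM in cKO libraries. WT replicate 2 and cKO replicate 2 again met, at 276.7 and 278.1 CPM, and the other WT libraries were at or below 160.0 CPM. The log2 fold change of Gstm3 was 1.32 (SE 0.311, 95% interval 0.62 to 2.01, adjusted p = 0.0135).

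Gstm2 (ENSMUSG00000040562, chr3:107981702-107986453), which lies between Gstm3 and Gstm1 in the cluster, was the member that was not called. It was at 49.1, 59.8, 56.1, 58.9 and 57.3 TPM in WT and at 47.2, 52.1, 55.4, 61.7 and 61.4 TPM in cKO libraries, and the genotypes overlapped throughout. Its log2 fold change was 0.08 (SE 0.0953, edgeR adjusted p = 0.572), with a 95% interval of −0.13 to 0.28. The upper end of this interval lay below the lower end of the intervals of Gstm1 (0.49), Gstm3 (0.62), Gsta1, Gsta4, Gstk1 (0.69) and Mgst2 (0.41). The log2 ratio of Gstm1 to Gstm2 in CPM was 1.05 to 2.002 in WT and 2.11 to 2.46 in cKO libraries, and that of Gstm2 to Gstm3 was −2.58 to −0.92 in WT and −3.37 to −2.69 in cKO libraries, so neither ratio overlapped between genotypes. Of the 45 ratios between members 21 did not overlap between genotypes, and of the 9 that involve Gstm2 6 did not. The share among ratios of other genes was not computed. Gstm2 was looked at because it was not called, so these counts are a description only. With all 7 mu genes added together the log2 fold change was 0.97 (SE 0.196, adjusted p = 0.00550), a sum in which Gstm2 is a small part.

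Gstk1 (ENSMUSG00000029864, chr6:42245935-42250447), the mitochondrial and peroxisomal enzyme, was the lowest of the 10 by level. It was at 20.2, 29.8, 14.99, 16.3 and 21.03 TPM in WT and at 38.6, 35.2, 34.5, 49.99 and 52.2 TPM in cKO libraries, with no overlap. The log2 fold change was 1.13 (SE 0.201, 95% interval 0.69 to 1.57, edgeR adjusted p = 0.00303). Gsto1 (ENSMUSG00000025068, chr19:47854970-47864790), whose enzyme reduces dehydroascorbate and arsenic compounds rather than conjugating typical electrophiles, was at 460.2, 563, 465, 451 and 459 TPM in WT and at 625, 520.2, 535, 599 and 535 TPM in cKO libraries. WT replicate 2 lay within the cKO range and the other WT libraries below it. The log2 fold change of Gsto1 was 0.32 (SE 0.0899, 95% interval 0.13 to 0.52, adjusted p = 0.0194), the smallest among the members called. Without cKO replicate 1 it was 0.29 (adjusted p = 0.0506) and no longer called.

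The 3 membrane-bound members were all called higher. Mgst1 (ENSMUSG00000008540, chr6:138140316-138156755), a transferase and peroxidase of the endoplasmic reticulum and outer mitochondrial membrane, was at 382, 416, 336, 317 and 363 TPM in WT and at 452, 439.6, 487, 455 and 491 TPM in cKO libraries. All cKO libraries were above all WT libraries, and the log2 fold change was 0.47 (SE 0.0994, 95% interval 0.26 to 0.69, edgeR adjusted p = 0.00543). Mgst2 (ENSMUSG00000074604, chr3:51660360-51682677), which can form leukotriene C4, was at 111, 138, 79.3, 75.5 and 106 TPM in WT and at 168, 146, 151, 172 and 199 TPM in cKO libraries, without overlap. Its log2 fold change was 0.78 (SE 0.168, adjusted p = 0.00706). Mgst3 (ENSMUSG00000026688, chr1:167371966-167393841), a membrane glutathione peroxidase and transferase, was at 194, 247, 159.9, 154 and 198 TPM in WT and at 277, 226, 253, 234 and 269 TPM in cKO libraries. WT replicate 2 lay within the cKO range. The log2 fold change of Mgst3 was 0.49 (SE 0.143, 95% interval 0.18 to 0.80, adjusted p = 0.0249), and it was not called without WT replicate 3 (adjusted p = 0.0571), cKO replicate 1 (0.0577) or cKO replicate 5 (0.0670).

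The order of the members by mean level changed between genotypes. By mean TPM, which can be compared between genes of different length, Gsto1 led in WT crypts with 479.8 ± 47.1 TPM. Mgst1 (363 ± 38.9) and Gsta1 (349.6 ± 136) followed. The range of Gsta1 in WT libraries (197 to 558 TPM) overlapped those of Mgst1 (317 to 416 TPM) and Gsto1 (451 to 563 TPM). The place of Gsta1 also depends on how reads were divided with Gm3776, at 140 ± 57.3 TPM in WT and 403 ± 57.0 TPM in cKO crypts. In cKO crypts Gsta1 led with 963 ± 141 TPM, followed by Gsto1 (563 ± 46.2), Mgst1 (465 ± 22.6) and Gstm3 (369 ± 58.1), and the ranges of these 4 neighbours did not overlap (SD, n = 5 libraries for each value). In WT the neighbours from Gsta1 through Mgst3, Gstm3, Gstm1 and Mgst2 to Gsta4 all overlapped in range, and in cKO the neighbours from Gstm3 through Mgst3, Gstm1 and Gsta4 to Mgst2 did. Gstk1 was last in both genotypes, with 20.5 ± 5.79 TPM in WT and 42.1 ± 8.40 TPM in cKO crypts, below Gstm2, whose range it met in cKO libraries.

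**Figure D2:**
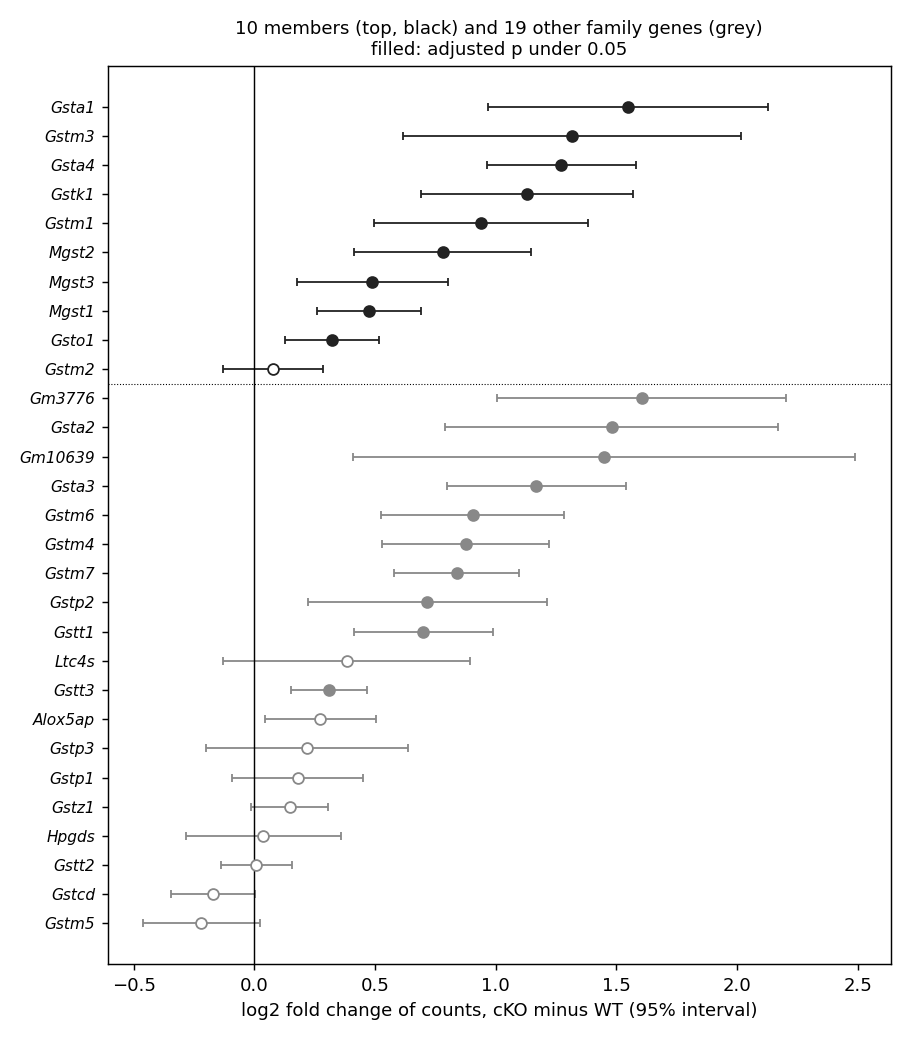
Log2 fold change (cKO minus WT, from counts) of the 10 members (black, above the dotted line) and the 19 other family genes tested (grey), each with its 95% interval, where a filled point has an adjusted p under 0.05. Gstm2 is the open point among the members, and the alpha-class genes Gm3776, Gsta2, Gm10639 and Gsta3 lead the other genes with values of 1.17 to 1.604.

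Beyond the members, 23 further genes of the glutathione transferase family and of the related membrane proteins were listed, of which 22 were found and 19 tested. Of these 10 were called higher and none lower (edgeR, none lower at an unadjusted p under 0.05 or by DESeq2), and their median log2 fold change was 0.38 (range −0.22 to 1.604), beside 15.6% called higher and a median of −0.03 over all genes tested. All 4 further alpha-class genes tested were called higher. Gsta3 (log2 fold change 1.17, SE 0.171, edgeR adjusted p = 0.00109), which shares no 75-base stretch, stood at 4.77 to 6.96 TPM in WT and 8.46 to 15.1 TPM in cKO libraries, on chromosome 1 and away from the alpha cluster. Gsta2 rose by 1.48 (edgeR adjusted p = 0.00600) at 1.15 to 8.16 TPM, and Gm10639 by 1.45 (adjusted p = 0.0396) at 0.10 to 2.59 TPM. Both are uncertain because 36.6% and 37.3% of their stretches are shared with other alpha genes. For Gm3776 this share was 89.1%. The calls of Gm3776, Gsta2 and Gm10639 are therefore not separate observations from that of Gsta1.

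In the mu cluster Gstm4 (0.88, adjusted p = 0.00288), Gstm6 (0.90, adjusted p = 0.00423) and Gstm7 (0.84, adjusted p = 0.000981) were called higher in edgeR, whereas Gstm5 was at −0.22 (95% interval −0.46 to 0.02, adjusted p = 0.159). So 5 of the 7 mu genes tested were called higher, and Gstm2 and Gstm5 were not. Gstm5 lies at the end of the cluster at chr3:107895821-107898686 on the opposite strand from the others. Gstp1, the most abundant family gene in WT crypts at 518 to 776 TPM, was at 576 to 729 TPM in cKO crypts and was not called (log2 fold change 0.18, 95% interval −0.09 to 0.45, adjusted p = 0.306). Gstp2 was called higher (0.72, adjusted p = 0.0362), but 59.6% of its stretches are also in Gstp1, and with the 2 genes added together the value was 0.24 (adjusted p = 0.192). Gstp3 was at 0.22 (adjusted p = 0.426).

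Of the theta class, Gstt1 (0.70, edgeR adjusted p = 0.00344) and Gstt3 (0.31, adjusted p = 0.00936) were called higher and Gstt2 was at 0.01 (95% interval −0.14 to 0.16). Gstz1, which also acts in tyrosine breakdown, was at 0.15 (adjusted p = 0.153) and Gstcd, a distant relative, at −0.17 (adjusted p = 0.133). Among the genes of eicosanoid synthesis that belong to the same superfamilies, Hpgds was at 0.04, Ltc4s at 0.38 and Alox5ap at 0.27 and none was called (adjusted p = 0.870, 0.243 and 0.0711 in edgeR). Gstt4, Gsto2 and Ptges had too few counts to be tested, with at most 13 in any library.

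**Figure D3:**
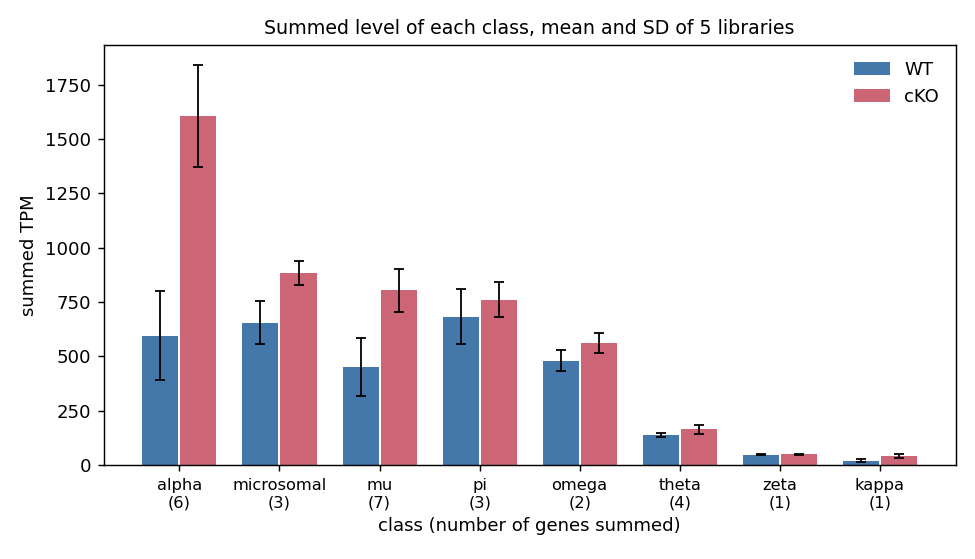
Summed TPM of each class (y axis, from 0; the number of genes summed is in parentheses) in WT (blue) and cKO (red) crypts, with bars the mean and error bars the SD of 5 libraries. The alpha class moves from 595 to 1606 TPM on average, while the pi class moves from 683 to 759.9 TPM.

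Summed by class, the alpha genes were at 595 ± 204 TPM in WT and 1606 ± 236 TPM in cKO crypts, and the microsomal genes at 655 ± 101 and 884 ± 53.7 TPM, each without overlap between genotypes. The mu genes were at 450.3 ± 133 and 803 ± 99.6 TPM, with 339 to 675 TPM in WT and 642 to 898 TPM in cKO libraries, so that the ranges met at the edge. The pi class was at 683 ± 126 and 759.9 ± 81.0 TPM and the omega class at 479.9 ± 47.0 and 563 ± 46.3 TPM, both with overlap (SD, n = 5 libraries each). The alpha class made up 18.7 ± 2.71% of the family's TPM in WT and 32.6 ± 2.31% in cKO libraries, and the pi class 22.02 ± 0.536% and 15.5 ± 0.738%, both without overlap. As shares of 1 total these values are tied to each other, and a lower share of the pi class is not a lower level.

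**Figure D4:**
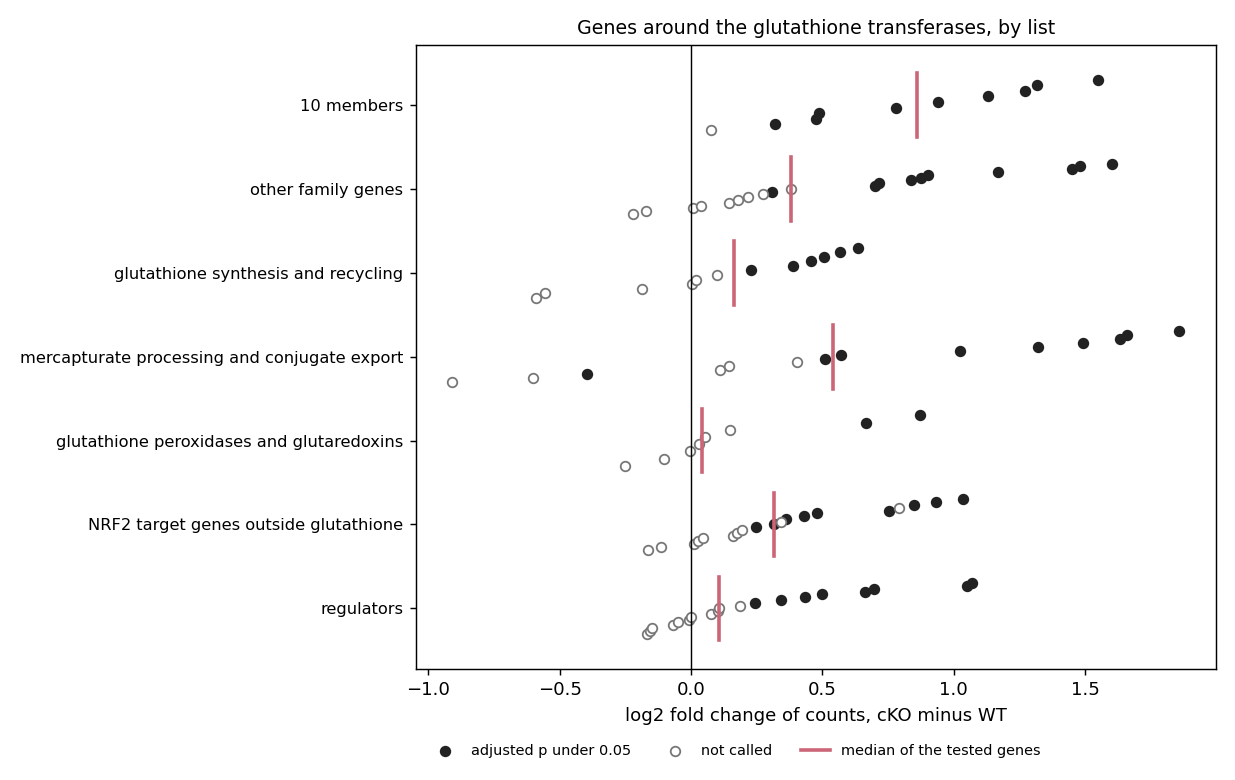
Log2 fold change (cKO minus WT, from counts) of every tested gene in 7 lists, with filled points at an adjusted p under 0.05, open points not called, and a red line at the median of each list. The medians are 0.86 for the members, 0.54 for mercapturate processing and export, and 0.04 for glutathione peroxidases and glutaredoxins.

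The genes that supply glutathione were listed apart. Of 12 genes of glutathione synthesis and recycling 6 were called higher and none lower (against 15.6% and 12.7% of all genes tested), with a median log2 fold change of 0.16. Gclm, the modifier subunit of the rate-limiting glutamate-cysteine ligase, rose by 0.64 (SE 0.0822, edgeR adjusted p = 0.000703) from 53.3 ± 4.95 to 82.8 ± 7.64 CPM (SD, n = 5 each). Its catalytic partner Gclc was called at 0.23 (adjusted p = 0.0115). Chac2, which degrades glutathione in the cytosol, rose by 0.57 and Slc3a2, the heavy chain of the cystine and other amino acid transporters, by 0.51 (adjusted p = 0.00338 and 0.0105 in edgeR). Gss, which completes the tripeptide, was at 0.00 (95% interval −0.19 to 0.20), and Gsr, which regenerates it from the disulfide, was at 0.02 (−0.20 to 0.24).

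Downstream of conjugation, 14 of 17 listed genes of mercapturate processing and conjugate export were tested, of which 8 were called higher and 1 lower, against 15.6% and 12.7% of all genes tested, and their median was 0.54 on the log2 scale. The largest were Ggt1, the gamma-glutamyltransferase that removes glutamate from the conjugate (log2 fold change 1.86, SE 0.457, edgeR adjusted p = 0.0165), the dipeptidase gene Dpep1 (1.66, adjusted p = 0.0273) and Nat8, which acetylates the cysteine conjugate (1.63, adjusted p = 0.0278). The apical export pump gene Abcc2 stood at a mean CPM of 74.8 ± 31.4 in WT against 211 ± 35.5 in cKO (SD, n = 5 each), and its genotypes did not overlap. Anpep, an aminopeptidase of the brush border that is also among the enterocyte markers, rose by 1.32 (adjusted p = 0.0375). Abcc1, the gene of a basolateral export pump, was called lower in edgeR, at −0.40 (SE 0.135, adjusted p = 0.0445). DESeq2 called 2 genes of this list lower and limma-voom none. The count of 9 called genes was 5 without WT replicate 3, WT replicate 5 or cKO replicate 1. WT replicates spread widely here, with Ggt1 at 617 to 3918 counts in WT and 5123 to 9473 counts in cKO libraries.

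Of 8 glutathione peroxidases and glutaredoxins tested, 2 were called higher and none lower, near the 28.3% called in either direction over all genes tested. Glrx, a glutaredoxin of the cytosol, rose by 0.87 (edgeR adjusted p = 0.00269) and Gpx4, which reduces lipid hydroperoxides in membranes, by 0.67 (adjusted p = 0.0148). Gpx2, a peroxidase of the gut epithelium, was at −0.25 (95% interval −0.66 to 0.16), and Gpx1 was at 0.15 (−0.15 to 0.45). Of 19 NRF2 target genes outside glutathione metabolism 9 were called higher and none lower, against 15.6% and 12.7% of all genes tested, with a median of 0.32. In the synthesis, peroxidase and NRF2 target lists no gene was lower at an unadjusted p under 0.05 in edgeR or called lower by DESeq2. Osgin1 (1.04), the ferritin heavy chain gene Fth1 (0.93) and the sulfiredoxin gene Srxn1 (0.85) had the largest values (adjusted p = 0.0288, 0.000981 and 0.0151 in edgeR), while Hmox1 was at 0.16 (95% interval −0.72 to 1.04) and Txnrd1 at 0.18 (adjusted p = 0.106). This count was 5 without WT replicate 1, WT replicate 4 or cKO replicate 5.

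Among 19 regulators of these genes 8 were called higher and none lower in edgeR, against 15.6% and 12.7% of all genes tested, and the median was 0.11. At an unadjusted p under 0.05 in edgeR 1 regulator was lower, and DESeq2 called none lower. Nr1i3 and Nr1i2, which encode the nuclear receptors CAR and PXR for foreign compounds, were at 1.07 (SE 0.240, edgeR adjusted p = 0.00936) and 0.66 (SE 0.140, adjusted p = 0.00610), and their partner Rxra was at 0.43 (adjusted p = 0.00188). Hnf4g, a nuclear factor of enterocytes, rose by 1.05 (adjusted p = 0.000926), whereas Hnf4a was at −0.15 (95% interval −0.29 to −0.0016, adjusted p = 0.120). Ppara, a receptor for fatty acids, rose by 0.50 (adjusted p = 0.0226). The small MAF genes Maff (0.70) and Mafk (0.25), whose products pair with NRF2, and Bach1 (0.34), which competes with it, were called as well (adjusted p = 0.0362, 0.0364 and 0.0384 in edgeR). Nfe2l2 itself was at 0.19 (95% interval 0.01 to 0.36, adjusted p = 0.101) and its inhibitor Keap1 at −0.05 (adjusted p = 0.607). Mafg (−0.17), Nfe2l1 (−0.01), Ahr (0.07), Arnt (0.11), Cdx2 (−0.07) and Gata4 (0.00) were not called. The count of 8 was 4 without WT replicate 4, cKO replicate 4 or cKO replicate 5.

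The members also varied together among animals of 1 genotype. WT replicate 2 was the highest WT library for 9 of the 10 members in CPM and WT replicate 4 the lowest for 7, and cKO replicate 2 was the lowest cKO library for 6. After each genotype's mean was taken off, Pearson's r over the 10 libraries was above 0 in all 45 pairs of members, with a median of 0.72 and 32 pairs above 0.50. These correlations are a description, since the 10 libraries share composition and normalization across genes. The same values were not computed for pairs of other genes, so they do not set the members apart from other genes. Gstk1 and Mgst2 (0.93), Mgst2 and Mgst3 (0.91), and Gsta1 and Mgst3 (0.91) were the most alike, and Gsta1 and Gstm2 (0.07) the least. For the 3 members with the highest mean TPM, the non-member genes most like them by the same measure were Mif4gd (0.98), Nudt7 (0.98) and Gm3776 (0.98) for Gsta1, Ghitm (0.98), Dgcr6 (0.97) and Slc25a5 (0.97) for Gsto1, and Lyrm1 (0.94), Sphk1 (0.93) and Plgrkt (0.93) for Mgst1. Mif4gd and Lyrm1 were not called between genotypes (log2 fold change −0.03 and 0.18), while the other 7 were called higher.

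**Figure D5:**
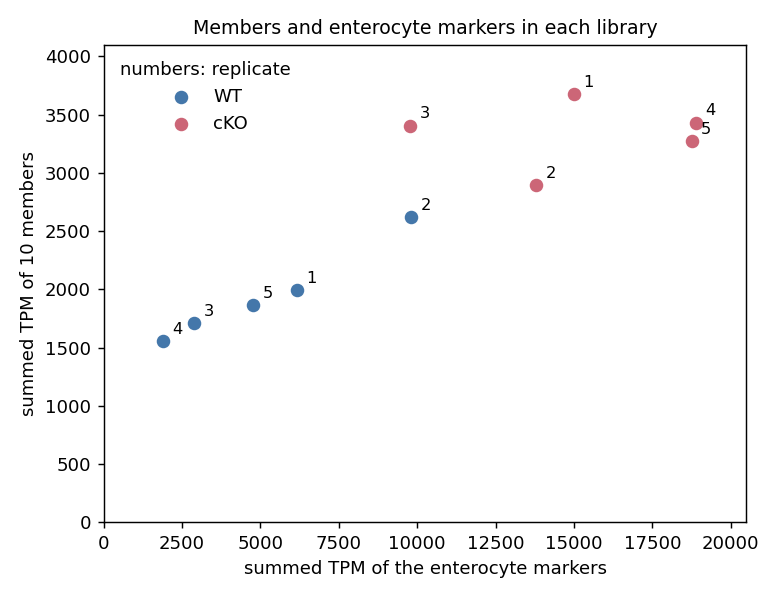
Summed TPM of the 10 members (y axis) against the summed TPM of 12 enterocyte markers (x axis) in each library, WT in blue and cKO in red, with the replicate number beside each point and both axes from 0. The WT libraries rise together from replicate 4 (1891 and 1553 TPM) to replicate 2 (9809 and 2619 TPM), and cKO replicate 3 lies at 9780 and 3404 TPM.

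The enterocyte markers followed the members among the WT libraries. The WT libraries had the same order by both sums, with replicate 4 lowest, then 3, 5 and 1, and replicate 2 highest. The cKO libraries did not, since cKO replicate 3 had the lowest marker sum (9780 TPM) but a member sum of 3404 TPM, and cKO replicate 2 had the lowest member sum (2896 TPM) at a marker sum of 13800 TPM. WT replicate 2 and cKO replicate 3 had nearly the same marker sum, 9809 and 9780 TPM, and member sums of 2619 and 3404 TPM. With 5 libraries per genotype no correlation was computed, and the part of the enterocyte share in the members' values was not tested.

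The promoters of the members were searched for letters bound by factors of this pathway, in the 250 bases upstream of each annotated start (RefSeq, GRCm38.p6). Windows were found for 9 of the 10 members, in 11 windows, and not for Gsta4. Letters searched on both strands included TGACNNNGC, the core of the antioxidant response element to which NRF2 binds, TGANTCA for AP-1, CAAAGTCCA for HNF4 and ATTAAA, of the A/T-rich kind that ARID3A is known to bind. The antioxidant and AP-1 letters can overlap in 1 site, which happened in none of these windows. Of the 9 members, 1 held the antioxidant element (Mgst1), 1 the AP-1 letters (Mgst2) and 1 the letters ATTAAA (Mgst3), and none held the HNF4 letters. Of all 32851 promoter windows of this length, 10.2% held the antioxidant element, 6.75% AP-1, 0.384% HNF4 and 12.7% ATTAAA. These counts of 1 in 9 are near the shares over all windows and say nothing particular of the members. The stretches around the 3 matches are printed to show where the letters lie, with capitals marking the match and each read along the gene's own strand. The Mgst1 match (chr6:138140451-138140499, plus strand) lies 48 to 56 bases upstream of the start with the element on the opposite strand, the Mgst2 match (chr3:51661107-51661153, plus strand) 46 to 52 bases upstream and readable on both strands, and the Mgst3 match (chr1:167394007-167394052, minus strand) 186 to 191 bases upstream on the opposite strand. A match is a run of letters and was not tested for binding.
Mgst1: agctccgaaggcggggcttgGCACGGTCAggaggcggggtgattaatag
Mgst2: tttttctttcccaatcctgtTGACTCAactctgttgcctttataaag
Mgst3: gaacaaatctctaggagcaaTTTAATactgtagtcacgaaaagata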

How the data were processed

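RNA-seq libraries of polyadenylated RNA from jejunal crypts of 5 WT and 5 cKO mice were analysed, grouped by the genotype in the labels. Reads had been aligned by the authors with STAR and quantified with RSEM, in nf-core/rnaseq 3.0, against release 95 of Ensembl (GRCm38), and the authors deposited for each library expected counts and TPM per gene without a filter. Reads that several genes share were divided by RSEM. The strand setting is not given in the sources used here, so overlapping and antisense genes may share counts. The deposited effective lengths served only in an alternative.

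After rounding to whole numbers, expected counts were tested in R 4.3.3 with edgeR 4.0.16 (filterByExpr with minimum count 10 and minimum total 15, TMM, robust quasi-likelihood test, Benjamini-Hochberg adjustment over 14719 genes, threshold 0.05). The study used DESeq2. Standard errors are the estimate divided by the root of its F statistic. CPM uses TMM library sizes. Of 54838 gene identifiers 54809 had a symbol. Libraries of 27050455 to 31053622 counts leave the spread between animals as the main error of the members, each with at least 281 counts in every library. Sequences came from GENCODE transcripts limited to the 138930 transcripts listed in the files, of which 138753 had a sequence, and coding sequences are those of the principal transcript. Scripts were tested on simulated counts. Figures were drawn with matplotlib 3.10.9.

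The members and lists were chosen with earlier results of these data known. Named genes were the members, all tested family genes, in each pathway list the 3 largest called changes in each direction, any regulator, the 3 genes most like each of the 3 most abundant members, and Arid3a; Gclc, Gss, Gsr, Abcc2, Anpep, Gpx1, Gpx2, Hmox1, Txnrd1 and the 6 epithelial markers were added for their roles after their values were seen. A few items covered by the rule are not reported here; the counts and tests include them.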

Additional observations from a re-analysis of the deposited data

Results flagged for a closer look

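In groups of 5 libraries, the gap between an extreme library and its neighbour was compared with the range of the group, and a share above 0.710 was taken as standing apart. Of 202 groups looked at (101 tested genes in 2 genotypes) 9 stood apart, and chance flags about 1 group in 20. Among the members this was Gstm1 in WT replicate 2, at 185.1 CPM with the next WT library at 111.4 CPM. In the rest of the family it was Gstp2 in cKO replicate 1 (75.6 CPM, next 54.8) and Hpgds in WT replicate 3 (4.24 CPM, next 4.82). In the pathway lists WT replicate 2 was also apart for Acy1 (80.2 CPM), G6pdx (83.2 CPM) and Nqo1 (51.4 CPM), and the others were Gpx3 in WT replicate 5 (7.89 CPM), Hnf4g in cKO replicate 5 (275.6 CPM) and Me1 in WT replicate 1 (15.1 CPM). Without WT replicate 2 the log2 fold change of Gstm1 was 1.17 (edgeR adjusted p = 0.000292).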

How the results depend on the processing

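Other tools were DESeq2 1.42.0, limma-voom (limma 3.58.1) and limma on log2(TPM + 1) or log2(TPM + 0.1). Scaling used RLE factors or library size alone, effective length entered as an offset, and counts were left unfiltered, unrounded or limited to genes with at least 10 in every library. Further fits had the replicate number as a block, left out each library, or added paralogs together; the sums of Gsta1 with Gm3776, of the 4 clustered alpha genes and of Gstp1 with Gstp2 were chosen after seeing the data. Of 417 values recomputed, 395 kept their direction and side of the threshold or, for counts, stayed within 1.5 times. The calls of Gsta1, Gsta4, Gstm1, Gstm3, Gstk1, Mgst1 and Mgst2 held under each alternative run for them, with Gsta1 between 1.39 and 1.80 on the log2 scale. These alternatives include the sums of the alpha and mu classes, which hold other called genes and do not test a single gene.

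The Gstm2 value was −0.0507 with library size alone, −0.0202 on log2(TPM + 1), −0.0206 on log2(TPM + 0.1), and 0.97 in the sum of the mu class, which by construction holds the called genes. With library size alone Gsto1 was at 0.19 (edgeR adjusted p = 0.0832), and unfiltered Mgst3 was at 0.49 (adjusted p = 0.0627), with 27960 genes tested. The peroxidase and glutaredoxin calls fell to 1 unfiltered, and the regulator calls to 5 with either TPM pseudocount, and the cause was not tested. With 1 library left out, the members called higher ranged from 7 to 9, Gsto1 from 0.2763 to 0.401, Mgst3 from 0.4011 to 0.6144, the mercapturate calls from 5 to 11, the NRF2 target calls from 5 to 10 and the regulator calls from 4 to 8. In the same fits the other family calls ranged from 8 to 12 and the glutathione synthesis calls from 5 to 6. The synthesis calls were 4 with library size alone, with either TPM pseudocount and with the replicate block.

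Library size alone put the median of all genes at −0.16 and that of the members at 0.73, and it moved the split of calls from 2298 higher and 1869 lower to 1541 and 4030; on log2(TPM + 1) the split was 1420 and 2733. Replicate numbers did not pair the libraries, since deviations of libraries with the same number correlated at −0.34 to 0.10 and 1 of 5 WT libraries matched best with its own number. With the replicate block 9 members and 3052 genes in all were called, and no member's call changed.

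The members held at least 281 counts per library, so counting error was small beside the spread between animals, while Gm10639 with 2 to 48 counts is limited by depth. The division of reads among Gsta1, Gm3776, Gsta2 and Gm10639 limits what can be said of each alone.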
